A study of Mus musculus with 16 samples.

Results

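The calcium release unit is the membrane junction at which a heart muscle cell turns an electrical signal into a calcium pulse. Its transcripts were described here through 10 genes chosen by symbol: the ryanodine receptors Ryr1 and Ryr2, the calsequestrins Casq1 and Casq2, triadin (Trdn), the junctophilins Jph1 and Jph2, Asph, Fkbp1b and Tmem38a. All 10 have a row among the 54108 named genes of the count table, and all 10 passed the filter on low counts that left 16051 genes for testing. The rule that picks them uses symbols alone, though the set was drawn up with earlier results of these data known. The libraries were made from heart ventricles of 8-week-old mice. Every animal carried the floxed Rbpms alleles (Rbpms fl/fl), and the cKO animals carried in addition Myh6-Cre, a recombinase driven by a promoter of cardiomyocytes. The controls had no Cre and no Cre-only mice were among the samples, so the effect of the Cre itself and that of Rbpms loss cannot be told apart. There were 4 libraries per genotype, with replicate 3 from a female and the other 3 replicates from males in each. Whether hearts were pooled is not in the labels, and the p-values below therefore reflect how far single libraries varied. Newborn hearts are also part of the series and were not analysed here.

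In a working cardiomyocyte, depolarisation opens L-type calcium channels in the transverse tubule, and the entering calcium opens ryanodine receptors in the facing membrane of the sarcoplasmic reticulum. Ryr2 is the release channel of the heart and Ryr1 that of skeletal muscle. Inside the reticulum, calsequestrin stores calcium close to the channel, with Casq2 as the cardiac and Casq1 as the main skeletal form, and triadin and junctin hold calsequestrin at the channel. Junctophilins span the gap between the membranes, an immunophilin encoded by Fkbp1b binds the channel from the cytosol, and the cation channel encoded by Tmem38a carries counter-ions while calcium leaves. The title of the series links the RNA-binding protein encoded by Rbpms to contraction and RNA splicing. Counts per gene do not separate splice forms, which bears on Asph and Trdn in particular.

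Promoter sequence is shown for 4 of the genes because they cover each outcome found below: Ryr2 and Jph2 were lower in cKO ventricles, Casq1 was higher, and Casq2 was not called. Each line gives the 250 bases before the RefSeq transcript start (GRCm38.p6), 5′ to 3′ on the strand of the gene, which is the minus strand for Ryr2, Jph2 and Casq1 and the plus strand for Casq2. The windows are chr13:12106946-12107195 for Ryr2, chr2:163397994-163398243 for Jph2, chr1:172219896-172220145 for Casq1 and chr3:102086165-102086414 for Casq2. Capitals mark matches to 5 muscle-related motifs searched on both strands: GATAA of the GATA factors, CATTCC of the TEAD factors, the E-box CAGCTG, and the MEF2 and CArG elements.
Ryr2: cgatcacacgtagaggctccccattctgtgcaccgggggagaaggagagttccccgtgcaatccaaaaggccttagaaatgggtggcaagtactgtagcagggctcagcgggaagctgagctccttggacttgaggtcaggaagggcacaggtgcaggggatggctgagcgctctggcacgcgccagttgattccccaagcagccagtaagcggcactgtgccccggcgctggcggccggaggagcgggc
Jph2: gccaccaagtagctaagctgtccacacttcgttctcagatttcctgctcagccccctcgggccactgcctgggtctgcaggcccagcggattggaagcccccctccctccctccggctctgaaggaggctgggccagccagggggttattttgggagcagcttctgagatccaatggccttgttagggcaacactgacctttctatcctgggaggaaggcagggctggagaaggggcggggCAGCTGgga
Casq1: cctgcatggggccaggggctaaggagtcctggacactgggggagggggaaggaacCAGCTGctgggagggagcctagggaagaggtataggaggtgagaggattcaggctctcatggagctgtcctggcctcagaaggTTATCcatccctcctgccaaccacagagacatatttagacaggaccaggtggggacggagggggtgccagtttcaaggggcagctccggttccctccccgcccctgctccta
Casq2: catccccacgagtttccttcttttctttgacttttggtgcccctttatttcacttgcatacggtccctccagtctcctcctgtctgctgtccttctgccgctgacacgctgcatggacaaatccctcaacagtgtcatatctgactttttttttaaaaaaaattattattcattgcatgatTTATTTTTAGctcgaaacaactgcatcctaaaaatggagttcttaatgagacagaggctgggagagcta
The Ryr2 window held none of the 5 motifs. The Casq1 window held an E-box at position -195 from the start and a GATA match at -112. In the Casq2 window a MEF2 match stood at -69, and in the Jph2 window an E-box stood at -9. None of these matches overlapped another. Jph2 has another RefSeq start, with the window chr2:163397974-163398223, in which the same E-box stood at -29. Over all 32851 RefSeq promoter windows of this length, 22.58% held GATAA, 12.64% CATTCC, 13% the E-box, 2.919% the MEF2 element and 1.467% the CArG element. A match is a run of letters and no evidence of binding. RefSeq windows were found for 7 of the 10 genes, and Jph1, Trdn and Asph had none in the table used.

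Library totals ran from 20190334 to 24540433 counts, and levels are given as CPM (counts scaled by TMM to a common library size). Rbpms fell 5.02-fold in cKO ventricles, and its 4 cKO libraries all lay below its 4 control libraries. The 12 cardiomyocyte markers were high in every library, at a summed 42752 to 55726 CPM in controls and 39128 to 45101 CPM in cKO, and 1 of them was called lower. Fibroblast markers were called higher 10 of 10, with sums of 2603 to 3518 CPM in controls and 5434 to 6335 CPM in cKO. Of the macrophage markers 3 of 9 were called higher and of the smooth muscle markers 2 of 9 lower. Of the atrial markers 2 of 6 were called higher, Nppa and Dkk3, while Myl4, Myl7, Sln and Stard10 were not called. Control replicate 1 had Myl4, Myl7 and Sln at 96.0, 92.6 and 12.3 CPM, against at most 37.3, 32.5 and 6.99 CPM in the other controls. In cKO libraries these ran from 39.1 to 168, 20.8 to 63.6 and 2.61 to 15.1 CPM. Dkk3 and Stard10 were also highest among controls in replicate 1, while Nppa was highest in control replicate 4. Endothelial markers were called 0 of 9 by the quasi-likelihood test of edgeR, by DESeq2, by limma-voom and at an unadjusted p under 0.05. Across all tested genes 9.64% were called higher and 9.64% lower. Control replicate 4 stood apart from the other libraries by transcripts of fast skeletal muscle: Myh4, the fast IIb myosin heavy chain, was at 58.2 CPM there and at 0 to 0.308 CPM in the other 7. The part of these shifts in the values below was not tested, except where a result is given without the library concerned or under another scaling.

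Set on a scale of CPM per kilobase of annotated exon, the release unit genes spanned more than 3 orders of magnitude in control ventricles. Casq2 was the highest at 473 ± 79.5 (mean ± SD, n = 4) and Tmem38a followed at 226 ± 27.9. Next came Ryr2 at 127 ± 10.5 and Jph2 at 107 ± 10.6. The ranges of Ryr2 and Jph2 overlapped slightly across control libraries, but within each of the 4 control libraries Ryr2 was above Jph2. Trdn was at 59.9 ± 11.0, Casq1 at 22.7 ± 12.62, Asph at 18.3 ± 0.66 and Jph1 at 9.33 ± 1.22. The spread of Casq1 over control libraries, 7.36 to 36.9, took in the ranges of Asph and Jph1, so the order of these 3 was not fixed. Fkbp1b at 0.511 ± 0.084 and Ryr1 at 0.136 ± 0.195 closed the order, and both were the least abundant in all 8 libraries. The lengths sum every annotated exon of a gene, so genes with many long or rarely used exons, such as Asph with 15 protein-coding transcript models, read lower on this scale than the length of their cardiac transcripts would give.

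In cKO ventricles the ends of the order held and its middle did not. Casq2 at 509 ± 34.4 and Tmem38a at 204 ± 2.59 CPM per kilobase again led the order in each library, and Fkbp1b and Ryr1 again closed it. Casq1 had rank 6 of 10 in 3 control libraries and rank 8 in the female one, against rank 3 in cKO replicates 2 and 4, rank 5 in replicate 1 and rank 6 in replicate 3. Its mean of 83.7 ± 29.4 CPM per kilobase lay beside 79.4 ± 5.01 for Jph2 and 79.1 ± 9.58 for Ryr2, and the ranges of all 3 overlapped. Ryr2 had rank 3 in all controls and in cKO replicates 1 and 3, and rank 5 in cKO replicates 2 and 4. On this scale the skeletal calsequestrin transcript thus reached the level of the cardiac release channel in cKO ventricles. Casq2 stayed several times above both. The scale divides by 28.79 kb of annotated exon for Ryr2 and by 1.951 kb for Casq1. The match and the ranks depend on how near these lengths are to those of the cardiac transcripts, which was not tested.

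**Figure D1:**
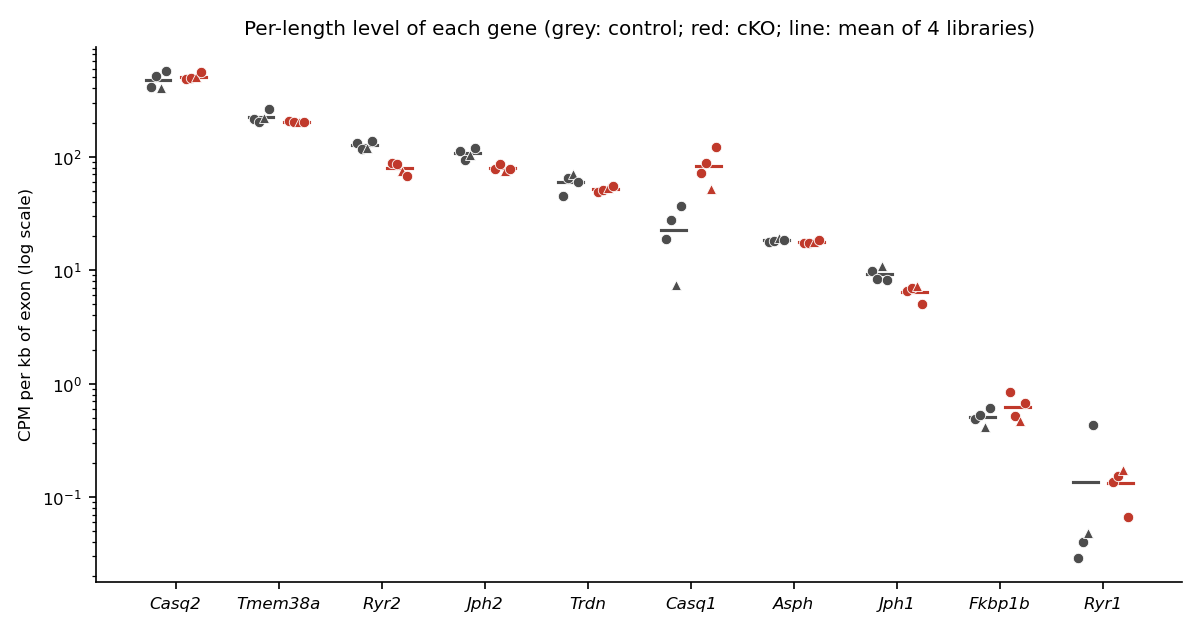
Per-length level of the 10 release unit genes in each library (CPM per kilobase of annotated exon, log axis), with genes ordered by control mean, controls in grey, cKO in red, triangles for the female libraries and lines for means of 4 libraries. Casq1 moves from the level of Asph up to that of Ryr2 and Jph2, while Casq2 and Tmem38a keep the top of the order and Fkbp1b and Ryr1 the bottom.

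Of the 10 genes, 3 fell (Ryr2, Jph1 and Jph2), 1 rose (Casq1) and 6 were not called (Casq2, Trdn, Asph, Fkbp1b, Tmem38a and Ryr1), at an adjusted p under 0.05 over all 16051 tested genes. Across all tested genes 9.64% were called lower, 9.64% higher and 19.3% in either direction, so 3 lower of 10 is above the background share and 1 higher of 10 is close to it. The 4 called genes were also the only members whose control and cKO values did not overlap, and 23.5% of all tested genes showed no overlap. The median log2 fold change over the 10 was -0.10, against 0.01 over all tested genes. With only 10 genes, chosen by name, these shares describe the unit and do not set it apart from other genes. Without control replicate 4, the library with skeletal muscle transcripts, 3 members were lower and 2 higher, the second being Ryr1.

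**Figure D2:**
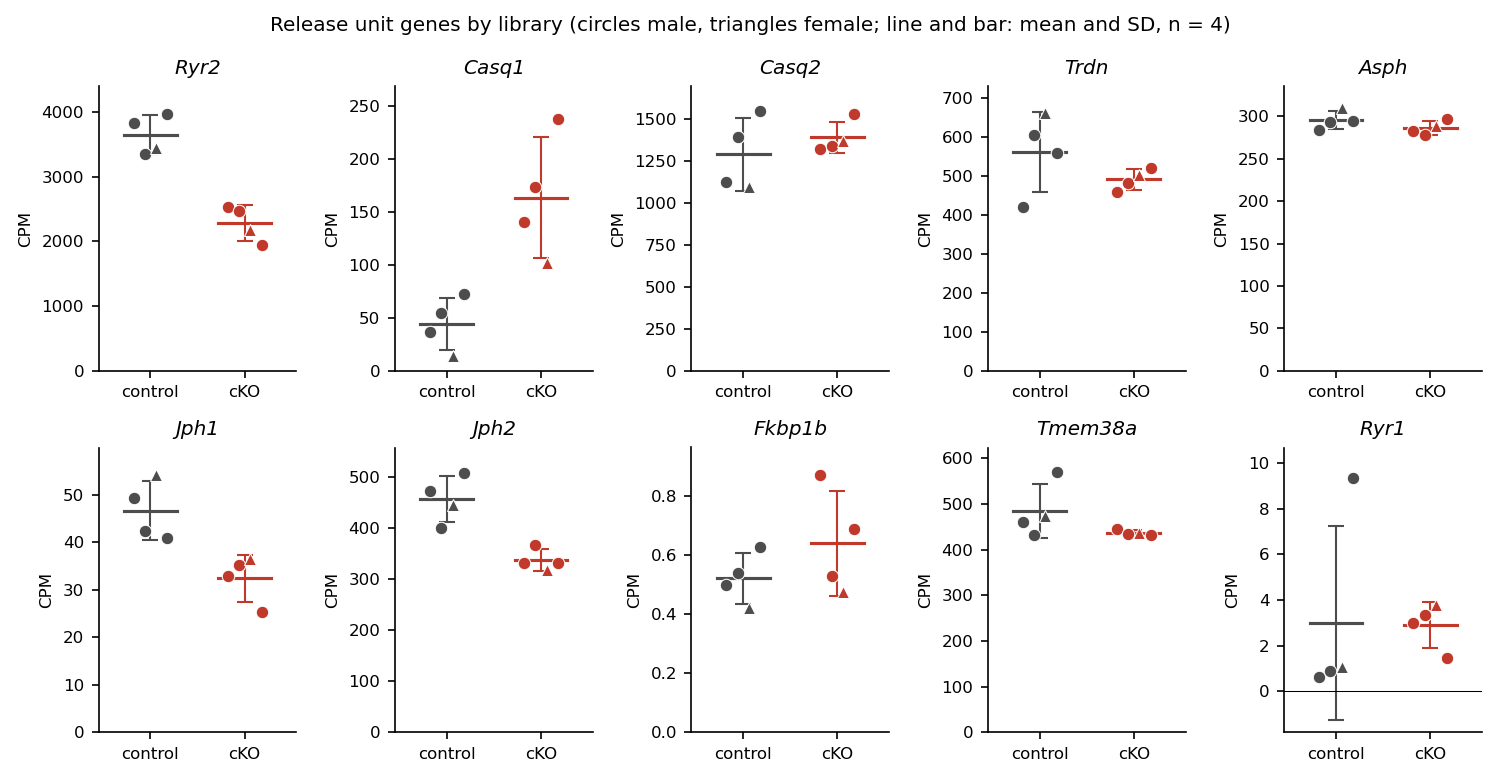
CPM of each release unit gene in the 8 libraries, scaled by TMM (circles for males, triangles for females, line and bar for mean and SD, n = 4). The control and cKO points separate for Ryr2, Casq1, Jph1 and Jph2 and overlap for the other 6, and 1 control point of Ryr1 lies at 9.35 CPM, far above the rest.

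Ryr2, the cardiac release channel (chromosome 13, 11553102 to 12106945, minus strand, GRCm38), was lower in every cKO library than in any control library. Control replicates 1 to 4 had 3828, 3340, 3444 and 3970 CPM, and cKO replicates 1 to 4 had 2530, 2471, 2175 and 1936 CPM. The lowest control, replicate 2, was above the highest cKO library, replicate 1. Group means were 3645 ± 301 and 2278 ± 276 CPM (SD, n = 4), a 1.6-fold lower level. The log2 fold change was -0.68 ± 0.11 (SE; 95% interval -0.91 to -0.44; adjusted p = 0.00114). It was called under all 19 alternatives, between -0.73 and -0.46, the value nearest to 0 coming from scaling to the summed cardiomyocyte markers. In bulk ventricle, fewer cardiomyocytes and less RNA per cardiomyocyte cannot be told apart.

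Ryr2 was the member with the most reads in every library, and the summed level of the unit was lower in cKO ventricles. The 10 genes together held 6502 to 7572 CPM in control libraries and 5235 to 5585 CPM in cKO libraries, with no overlap. Without Ryr2 the remaining 9 held 2853 to 3602 and 3023 to 3378 CPM, and the ranges overlapped. The share of Ryr2 in the summed CPM was 50.9% to 57.3% in controls and 36.4% to 45.6% in cKO ventricles. These are sums of counts, in which a long transcript such as that of Ryr2 weighs more than a short one.

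Ryr1, the skeletal release channel (chromosome 7, 29003344 to 29125179), was close to the floor in the ventricle and depended on 1 library. Its raw counts were 14, 18, 25 and 179 in control replicates 1 to 4 and 72, 76, 96 and 34 in cKO replicates 1 to 4. On the depth-scaled scale this is 0.634, 0.882, 1.05 and 9.35 CPM in controls against 2.98, 3.34, 3.80 and 1.46 CPM in cKO. Leaving out control replicate 4, every cKO library was above every control. The fit on all 8 libraries gave a log2 fold change of -0.02 ± 0.72 (95% interval -1.6 to 1.56; adjusted p = 0.990). Without control replicate 4 it gave 1.75 ± 0.36 (adjusted p = 0.00848), a 3.36-fold higher level.

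Other skeletal muscle transcripts were also high in the library in which Ryr1 peaked. The 16 skeletal markers summed to 216 CPM in control replicate 4, to 47.1 to 90.1 CPM in the other controls and to 67.1 to 194 CPM in cKO libraries. Most of the sum in control replicate 3 and cKO replicate 3 came from the marker Myl1, at 70.8 and 122 CPM there. Myl1 was at 30.1 CPM in control replicate 4. In control replicate 4 the adult myosin heavy chains Myh4, Myh1 and Myh2 were at 58.2, 11.2 and 8.52 CPM, and none of them passed 0.308 CPM in any other library. Atp2a1, the fast skeletal calcium pump, was at 36.8 CPM in control replicate 4, at 1.22 to 3.77 CPM in the other controls and at 4.13 to 23.8 CPM in cKO libraries. Tnnt3, fast skeletal troponin T, was at 18.1 CPM in that library, at 0.272 to 1.03 CPM in the other controls and at 2.84 to 8.98 CPM in cKO, and Mylpf, a fast regulatory light chain, at 9.51, 0.842 to 1.81 and 2.62 to 7.32 CPM. The cKO libraries thus had Atp2a1, Tnnt3 and Mylpf above the 3 other controls with the adult skeletal myosins at or near 0. Tnnc2, fast skeletal troponin C, was at 0 in all 8 libraries, control replicate 4 included, so it does not tell the libraries apart. With all libraries, 0 of 8 tested skeletal markers were called by the quasi-likelihood test of edgeR, by DESeq2, by limma-voom and at an unadjusted p under 0.05. Without control replicate 4, Atp2a1, Tnnt3 and Mylpf were called higher in cKO, 3 of 8, at log2 fold changes of 2.75, 3.27 and 2.30.

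**Figure D3:**
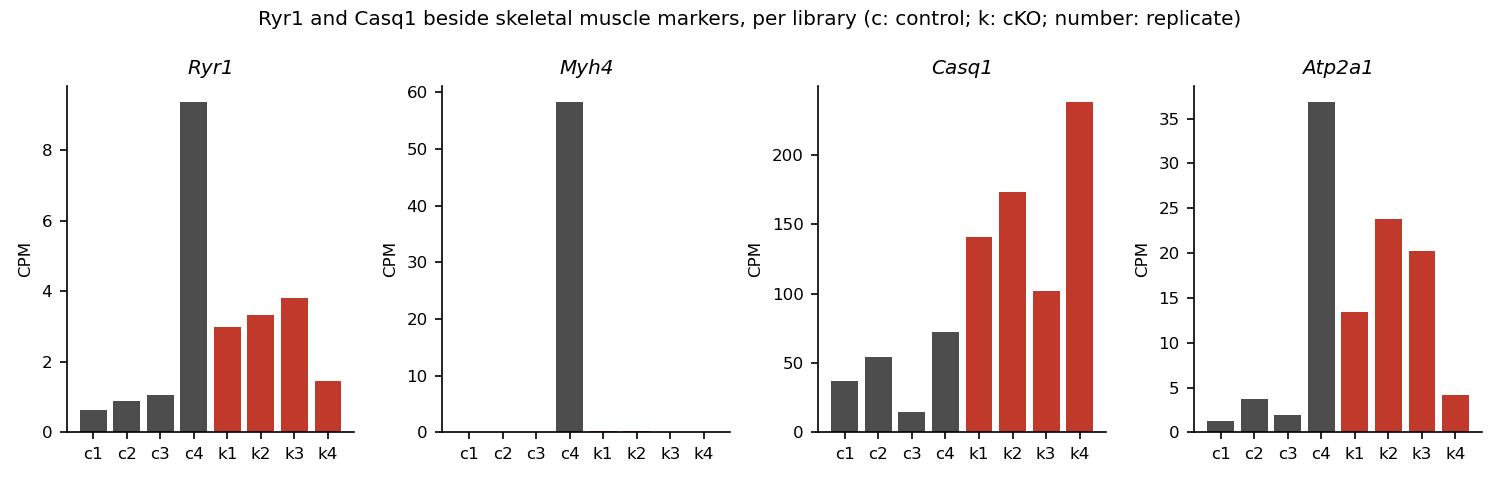
CPM of Ryr1 and Casq1 and of the skeletal markers Myh4 and Atp2a1 in each library (bars from 0; c, control; k, cKO; number, replicate). Ryr1, Myh4 and Atp2a1 all peak in control replicate 4, while Casq1 peaks in cKO replicate 4, at 238 CPM.

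Casq1, the calsequestrin of skeletal muscle (chromosome 1, 172209894 to 172219868, minus strand), was the only release unit gene called higher in cKO ventricles, and its promoter is printed above. It was at 36.9, 54.1, 14.4 and 72.1 CPM in control replicates 1 to 4 and at 141, 173, 102 and 238 CPM in cKO replicates 1 to 4. The lowest cKO library, the female one, still exceeded the highest control, and the female library was the lowest of its genotype in each group. Means were 44.4 ± 24.6 and 163 ± 57.3 CPM (SD, n = 4), a 3.69-fold higher level. In the fit the log2 fold change was 1.88 ± 0.39 (95% interval 1.02 to 2.74; adjusted p = 0.00593). With robust dispersions the call was lost at the same fold change (adjusted p = 0.0541), and with sex as a covariate it was kept (adjusted p = 0.000136).

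Control replicate 4 had the highest Casq1 level of the controls and also the skeletal muscle transcripts described above. Without it, the log2 fold change of Casq1 was 2.22 ± 0.40 (adjusted p = 0.00458). In cKO replicate 4 Casq1 had its highest level of all, 238 CPM, with Myh4 at 0 CPM and the lowest Atp2a1 level of the cKO group, at 4.13 CPM. The skeletal marker Myh8 went the other way and peaked in that library, at 1.46 CPM on 34 reads. The atrial markers Myl4, Sln and Dkk3 also peaked there, at 168, 15.1 and 69.8 CPM, while Myl7, Nppa and Stard10 peaked elsewhere. The part of other muscle in the Casq1 level was not tested. The annotated antisense gene Gm17224 shares 8.00% of the exonic bases of Casq1, and reads of the pair could be mixed if strand was not used in counting.

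Casq2, the cardiac calsequestrin (chromosome 3, 102086415 to 102146514, plus strand), was not called. Its controls were at 1128, 1398, 1099 and 1550 CPM and its cKO libraries at 1326, 1341, 1374 and 1531 CPM, so the cKO values lay inside the control range. The log2 fold change was 0.11 ± 0.12 (adjusted p = 0.584), with a 95% interval of -0.15 to 0.36. That interval excludes a fall of the size seen for Ryr2.

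The balance of the calsequestrins was read from the counts within each library, which needs no scaling between libraries. Per exonic length, Casq1 was 4.38%, 5.15%, 1.80% and 6.12% of the summed calsequestrin level in control replicates 1 to 4. In cKO replicates 1 to 4 it was 12.9%, 15.3%, 9.44% and 17.9%, so all 4 lay above all controls. The mean shares were 4.36 ± 1.85% and 13.9 ± 3.59% (SD, n = 4). The log2 ratio of Casq1 to Casq2 counts was higher by 1.92 in cKO libraries (exact two-sided permutation p = 0.0286, the smallest that 4 against 4 libraries can give; adjusted p = 0.0571 over 10 ratios). Casq2 remained the main calsequestrin transcript in every library.

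Trdn, triadin, which anchors calsequestrin to the release channel (chromosome 10, 33080554 to 33476709), was not called. It was at 420, 604, 661 and 557 CPM in controls and at 459, 482, 501 and 520 CPM in cKO libraries. Control replicate 1 was the lowest of all 8 libraries and the other 3 controls were above every cKO library. The log2 fold change was -0.19 ± 0.12 (95% interval -0.46 to 0.07; adjusted p = 0.313). Without control replicate 1 it was -0.31 and was called (adjusted p = 0.0367).

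Asph encodes aspartyl/asparaginyl beta-hydroxylase and, from shorter transcripts, junctin and junctate, and the counts sum all of them (chromosome 4, 9448069 to 9669344). It was the steadiest member across libraries, at 283, 293, 309 and 295 CPM in controls and 283, 278, 288 and 297 CPM in cKO. Its fitted log2 fold change was -0.04 ± 0.07, with a 95% interval of -0.19 to 0.10 (adjusted p = 0.719). The gene-level counts give no value for junctin alone. Of its exonic bases, 14.3% overlap Clvs1 on the opposite strand.

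Both junctophilins, the tethers between the transverse tubule and the reticulum, fell. Jph2, the main cardiac form (chromosome 2, 163336242 to 163397993), was at 474, 401, 445 and 508 CPM in controls and at 333, 368, 318 and 332 CPM in cKO libraries. The highest cKO library was below the lowest control, and the level fell 1.35-fold, with a log2 fold change of -0.44 ± 0.09 (95% interval -0.63 to -0.24; adjusted p = 0.00502). Jph1, the form better known from skeletal muscle (chromosome 1, 16964560 to 17097889), was at 49.3, 42.3, 54.0 and 41.0 CPM in controls and at 32.8, 35.1, 36.4 and 25.3 CPM in cKO libraries. Its groups did not overlap either, and it fell 1.44-fold, with a log2 fold change of -0.52 ± 0.13 (95% interval -0.80 to -0.25; adjusted p = 0.0123). The female library was the highest of its genotype for Jph1 in each group. Both calls were lost when libraries were scaled to the summed cardiomyocyte markers, at -0.22 for Jph2 (adjusted p = 0.107) and -0.31 for Jph1 (adjusted p = 0.182). That scaling was chosen after the data were seen, and it moved the median of all tested genes from 0.01 to 0.22. Myh6 was the largest part of the marker sum, at 19800 CPM in controls and 15603 CPM in cKO (log2 fold change -0.34). Of the 12 markers 9 had a negative log2 fold change and 1 was called. Whether the marker sum follows cardiomyocyte number was not tested. The log2 ratio of Jph1 to Jph2 counts differed by -0.10 between genotypes (exact two-sided permutation p = 0.571). Jph1 was thus lower together with Jph2, and was 6.43% to 9.36% of their summed per-length level in controls.

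Tmem38a, the counter-ion channel of the reticulum known from excitable cells (chromosome 8, 72572055 to 72587282), was not called. It was at 460, 433, 474 and 570 CPM in controls and at 445, 433, 436 and 433 CPM in cKO libraries. The cKO libraries lay close together at the lower end of the control range, and control replicate 4 was the highest of all. The log2 fold change was -0.15 ± 0.09 (95% interval -0.35 to 0.05; adjusted p = 0.287). Tmem38b, its more widely expressed relative, fell from 35.0 ± 4.66 to 25.9 ± 1.52 CPM (adjusted p = 0.0109), a call lost with males only (adjusted p = 0.0525).

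Fkbp1b, the immunophilin bound to the cardiac release channel (chromosome 12, 4833174 to 4841591), was covered by few reads. Raw counts were 11, 11, 10 and 12 in controls and 21, 12, 12 and 16 in cKO libraries. The sums of 44 and 61 counts gave a depth-scaled ratio of 1.24, with an exact interval of 0.828 to 1.87 that covers counting error only. Its fitted log2 fold change was 0.30 ± 0.33 (adjusted p = 0.588), and a stricter filter on low counts removed the gene. Fkbp1a, the close relative found in most cells, was at 163 ± 12.9 and 155 ± 5.26 CPM and was not called (adjusted p = 0.600).

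Release unit transcripts were set against Ryr2, or against a related gene, within each library. Of 10 ratios compared, 5 reached the smallest p of 0.0286 in the exact two-sided permutation test, and none passed after Benjamini-Hochberg adjustment (0.0571 for these 5). At least 6 of the 10 would have had to reach that p for an adjusted value under 0.05. The ratios are not independent. Casq2/Ryr2, Jph2/Ryr2 and Fkbp1b/Ryr2, all among the 5, share Ryr2, whose own log2 fold change of -0.68 enters each of them. Casq2 per Ryr2 was higher in every cKO library than in any control, with per-length ratios of 3.74 ± 0.615 in controls and 6.55 ± 1.28 in cKO libraries (SD, n = 4), a difference of 0.80 in the log2 ratio of counts. Jph2 per Ryr2 was 0.848 ± 0.028 in controls and 1.01 ± 0.111 in cKO libraries, again without overlap. This difference was 0.25 on the log2 scale.

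Trdn per Ryr2 was 0.479 ± 0.116 in controls and 0.674 ± 0.120 in cKO libraries, and the groups overlapped (exact permutation p = 0.0571, adjusted p = 0.0952). Fkbp1b per Ryr2 was higher by 0.94 on the log2 scale without overlap, on 10 to 21 reads of Fkbp1b per library. Tmem38a per Tmem38b was higher by 0.28 without overlap, from a per-length ratio of 24.7 ± 2.84 to 30.0 ± 1.75. Ryr2 against Cacna1c, the pore subunit of the cardiac L-type channel that triggers it, differed by -0.22 (exact permutation p = 0.114, adjusted p = 0.159). Channel and trigger were thus both lower, and the test did not show a difference between their falls. Ryr1 per Ryr2 was higher by 1.5 (exact permutation p = 0.143) and Fkbp1b per Fkbp1a by 0.32 (exact permutation p = 0.143), both with an adjusted p of 0.159.

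**Figure D4:**
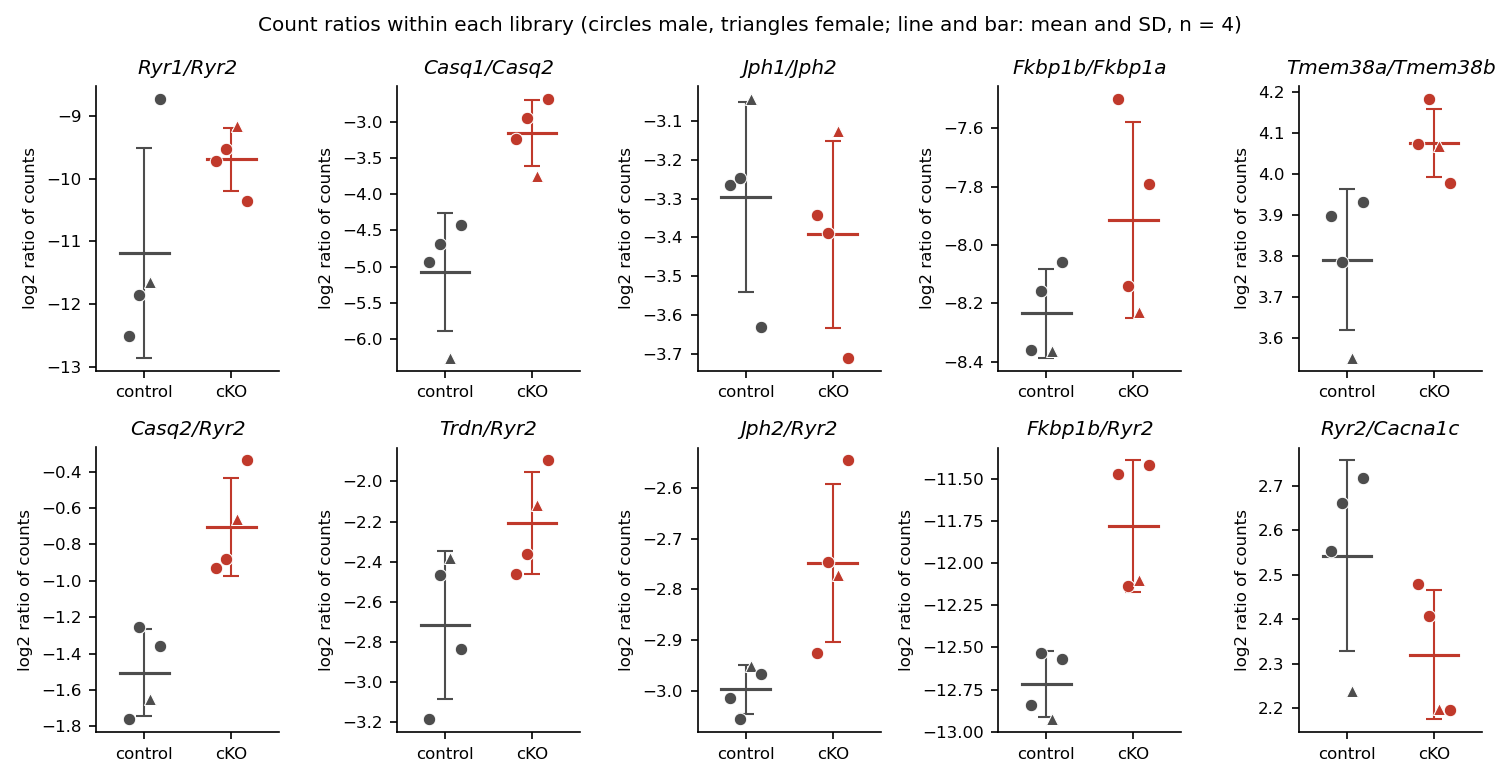
Log2 ratios of counts of gene pairs within each library (circles for males, triangles for females, line and bar for mean and SD, n = 4). Casq1/Casq2, Tmem38a/Tmem38b, Casq2/Ryr2, Jph2/Ryr2 and Fkbp1b/Ryr2 separate the genotypes in all 8 libraries, and the other 5 overlap.

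A list of 34 further genes of the release unit and its trigger was read from the same fit. Of the 31 tested ones 6 were called lower (19.4%) and 1 higher (3.23%), against 9.64% of all tested genes in each direction, and their median log2 fold change was -0.10. The L-type calcium channel accounted for 3 of the 6. Cacna1c, its cardiac pore, fell from 628 ± 85.0 to 454 ± 22.5 CPM (log2 fold change -0.47, adjusted p = 0.00648). Cacnb2, the auxiliary beta subunit, fell from 145 ± 17.9 to 83.6 ± 7.73 CPM (-0.80, adjusted p = 0.000323), the partner call with the smallest adjusted p. Cacna1s, the pore known from skeletal muscle, fell from 15.4 ± 4.93 to 6.54 ± 1.28 CPM (-1.24, adjusted p = 0.00231), opposite in direction to Casq1. Of its exonic bases 19.98% overlap the antisense gene Gm37759. Cacna2d1, which encodes the channel's auxiliary alpha-2-delta subunit, was not called (-0.05, adjusted p = 0.842).

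Hrc, the histidine-rich calcium-binding protein of the reticulum lumen that binds triadin, fell from 1547 ± 85.6 to 1182 ± 67.2 CPM (-0.39, adjusted p = 0.00579). Its libraries were at 1470 to 1668 CPM in controls and 1111 to 1247 CPM in cKO. Cmya5, myospryn, fell from 1785 ± 180 to 1167 ± 296 CPM (-0.61, adjusted p = 0.0259). That call was lost without control replicate 1, control replicate 4 or cKO replicate 1 (adjusted p of 0.0603, 0.0641 and 0.0568), and cKO replicate 4 was lowest at 733 CPM. Bin1, which shapes transverse tubule membrane, was the only partner called higher, from 8.77 ± 1.05 to 13.5 ± 1.04 CPM (0.63, adjusted p = 0.00368), with all cKO libraries above all controls. Scaling to the summed cardiomyocyte markers ended the calls of Hrc, Cacna1c, Tmem38b and Cmya5 and left those of Cacnb2, Cacna1s and Bin1.

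Partners that did not pass included regulators that bind the channel. Sri, sorcin, was at 48.6 ± 1.98 and 53.1 ± 2.20 CPM (adjusted p = 0.243). Its groups did not overlap, at 46.5 to 51.3 CPM in controls and 51.5 to 56.3 CPM in cKO, as was the case for 23.5% of all tested genes. Camk2d and Prkaca, kinases that phosphorylate the channel, had values of -0.11 and -0.13. Cav3, the muscle caveolin, was just outside the threshold at -0.37 (adjusted p = 0.0502). Jsrp1, a junctional protein of the sarcoplasmic reticulum, was at 0.505 ± 0.221 and 1.27 ± 0.712 CPM (1.35, adjusted p = 0.0629). The IP3 receptors Itpr1, Itpr2 and Itpr3, another class of release channel, had values of 0.21, -0.0033 and 0.24, and Ryr3 was at 4.55 ± 0.617 and 5.66 ± 0.317 CPM (adjusted p = 0.177). Jph3, Jph4 and Stac were below the filter on low counts.

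**Figure D5:**
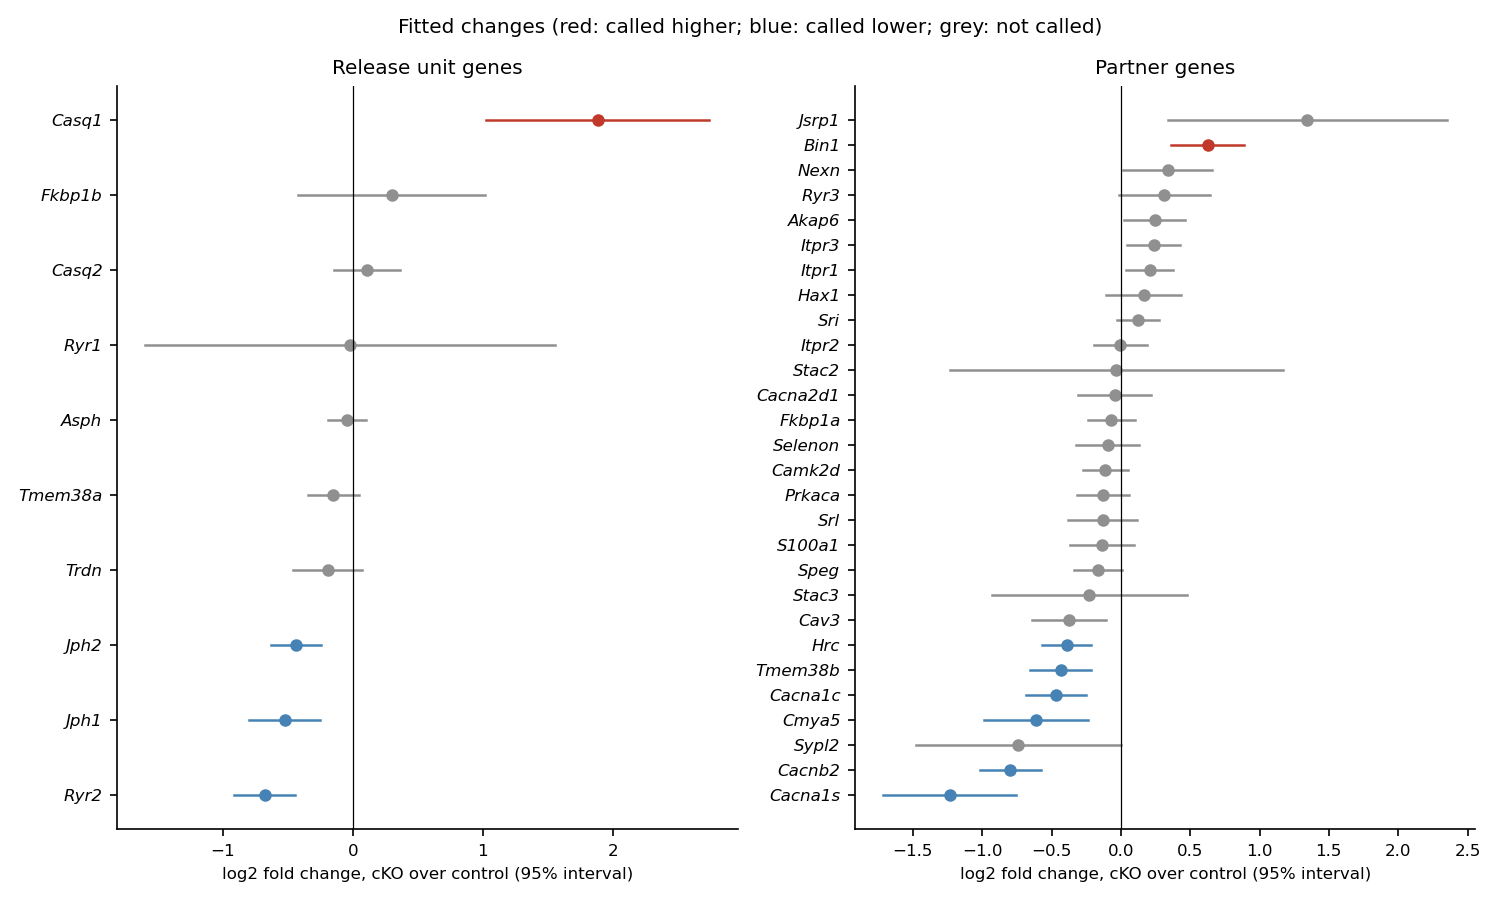
Log2 fold changes of cKO over control with 95% intervals for the 10 release unit genes and most of the tested partner genes (red, called higher; blue, called lower; grey, not called; the panels have separate axes). Casq1 and Bin1 are the only red points, and the blue points run from Hrc at -0.39 to Cacna1s at -1.24.

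Pairs of release unit genes moved together to different degrees over the 8 libraries, which share genotype, depth and scaling, so the coefficients are descriptions only. Ryr2 and Jph2 had a Pearson r of 0.94 over all libraries and 0.66 for deviations from their genotype means. Casq1 and Jph1 ran opposite, with -0.94 over all libraries and -0.83 within genotypes, where the female libraries were lowest for Casq1 and highest for Jph1. Casq1 and Casq2 had 0.73 and 0.83, so libraries high in 1 calsequestrin tended to be high in the other within a genotype. Trdn and Asph had 0.84 and 0.80. Ryr1 and Tmem38a had 0.52 and 0.89, both being highest among controls in replicate 4.

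Among 9165 other genes with a mean of at least 10 CPM, those with the highest Pearson r to Ryr2 over the 8 libraries were Ccni, Klf12, Prkx, Eef2k and Agtpbp1, with r from 0.981 to 0.990. Ccni went from 347 ± 31.3 to 214 ± 20.9 CPM and Eef2k from 71.3 ± 3.86 to 50.9 ± 3.24 CPM. For Casq1 the corresponding genes were Maf, Ip6k3, Ckap4, Col6a3 and Il18bp, with r from 0.973 to 0.985. Maf went from 26.2 ± 2.65 to 33.2 ± 2.32 CPM and Col6a3 from 119 ± 31.2 to 212 ± 35.5 CPM. These genes were picked for their likeness out of 9165, so a high r is built into the choice.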

How the data were processed

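RNA of mouse heart ventricles was made into stranded mRNA libraries, per the labels' protocols. The deposited table holds raw counts per gene symbol, which the authors made from their reads, with 1 column per 8-week library. HISAT2 2.0.4, FastQC 0.11.4, edgeR 3.30.3 and featureCounts 1.6.0 are listed in the submitters' processing notes, as are mm10 and GRCm38, with no role for each. Not given in the sources used here are the gene annotation used for counting, whether strand was used and how multi-mapped reads were treated, so overlapping genes and close paralogs may share reads.

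Of 54132 rows, 24 had a number in place of a symbol (0.115% to 0.132% of counts) and were left out. Library totals were 20190334 to 24540433. No libraries of 1 genotype were duplicates (chi-square per degree of freedom 7.79 to 34.8). The quasi-likelihood test of edgeR 4.0.16 (R 4.3.3) was fitted to 16051 genes with genotype as the only term, TMM scaling, the default low-count filter and p-values adjusted by Benjamini-Hochberg across these genes, with a threshold of 0.05. It was tested on simulated data. CPM are TMM-scaled. Per-length levels divide CPM by the union exon length in GENCODE M21 (GRCm38). Ratios are log2 of counts plus 0.5, compared by exact two-sided permutation. Fold changes are cKO over control, with the SE from the F statistic.

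Alternatives were DESeq2 1.42.0 size factors, total counts, upper-quartile factors or summed cardiomyocyte markers for scaling, no filter or a stricter filter on low counts (CPM of 1 in 4 libraries), DESeq2, limma-voom (limma 3.58.1), robust dispersions, sex as a covariate, males only, each library left out, and a pseudocount of 2 in ratios. The members and lists were chosen with earlier results of these data known. Named genes are all members, called partners, genes of the ratios, the 5 genes most like Ryr2 and Casq1 by Pearson r (log2 CPM, prior count 2), and Rbpms. The uncalled partners and the markers given with values were chosen after their values were seen. Some items are not reported here.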

Additional observations from a re-analysis of the deposited data

Results flagged for a closer look

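Within 1 genotype, the level of 1 member in 1 library lay far from the other 3. Ryr1 in control replicate 4 was at 9.35 CPM, and its gap to the next control took 0.952 of the whole range, above the critical value of 0.829 for 4 values. It was the only such value among 54 groups examined. Chance alone flags about 1 group in 20, so the count of 1 flag in 54 cannot tell whether this value is more than chance. The same library held the adult skeletal myosin transcripts given above, and their part in the Ryr1 value was not tested.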

How the results depend on the processing

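Ryr2 kept its direction and its call under all 19 alternatives, and Casq2 and Fkbp1b were called under none. Of the 4 called members, Casq1 lost its call with robust dispersions (0 members higher) and Jph1 and Jph2 under scaling to the cardiomyocyte markers (1 member lower). Leaving out 1 library at a time gave 1 to 2 members higher and 3 to 4 lower, with 2 higher without control replicate 4 and 4 lower, Trdn included, without control replicate 1. Partner genes called lower dropped to 2 under the cardiomyocyte marker scaling. Partner genes called higher numbered 5 with total counts, 2 with no filter, with DESeq2, with sex as a covariate and with males only, 6 with the marker scaling, and 1 to 3 when 1 library was left out. Of all calls, 50.02% were higher with TMM, 66.1% with total counts (1992 higher, 1021 lower) and 83.9% with the marker scaling (2425 and 466, median 0.22). Ryr1 turned positive with total counts (0.12), upper-quartile factors (0.0029), limma-voom (0.88), sex as a covariate (0.053), the marker scaling (0.30), without cKO replicate 4 (0.19) and without control replicate 4 (1.75), and was lowest among the fits with 1 library left out at -0.37 (without control replicate 1). Asph turned positive with total counts (0.041) and the marker scaling (0.17), as did Trdn (0.011) and Tmem38a (0.074) with the latter, none of them called. The Jph1/Jph2 ratio ran from -0.21 to 0.01 when 1 library was left out, positive only without cKO replicate 4 (0.0106). The causes of these changes were not tested. No paired analysis was possible because the labels give the genotypes no shared replicate numbers. Depth limits Fkbp1b and Ryr1, with at most 21 and 179 reads in a library.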
